A study of Mus musculus with 8 samples.

Results

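Among the progenitors of mouse bone marrow profiled here, the population sorted as C13 had 5785 stretches of chromatin that its accessibility peak lists held and those of the other 3 populations did not. They were found by merging the overlapping or touching peaks of 8 lists, 1 per library, into 207739 regions. A region was kept when a peak of both C13 libraries overlapped it by at least 1 base, no peak of C2, C10 or C18 did, and no peak of a second caller, HOMER, in those populations touched it. The 5785 regions, called C13-only regions here, were 6.56% of the 88234 regions that both C13 libraries held. Because measured peaks chose them, their number, ranks and absence elsewhere describe the choice and are not tested.

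The cells were common myeloid progenitors, primary marrow cells of wild-type C57BL/6 mice, all of them KIT+ and CD16/32-, with 2 libraries for each of 4 populations. C13 was CD34dim and lacked CD41 and CD9. C10 was CD34dim CD41+ CD9+ with bright CD48, C18 was CD34dim CD41+ CD9+ with dim CD48, and C2 was CD34bright CD41+ CD9+. Each preparation took 40000 to 50000 cells, and nothing in the labels tells whether replicate libraries derive from different mice or how many mice were pooled. The populations are defined by sorted surface proteins alone, and the series text names partly other clusters than the sample titles, whose names are used here.

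ATAC-seq uses a transposase to tag DNA that nucleosomes leave exposed, so its peaks mark promoters, enhancers and other sites where proteins reach the DNA. Enhancers away from gene starts differ more between blood cell types than promoters do. Early progenitors can hold accessible sites at genes of several lineages before any of those genes is strongly expressed. CD41, the integrin alpha IIb chain, and CD9, a tetraspanin, are surface proteins of the megakaryocyte lineage, so the gate of C13 leaves out cells that carry them.

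Few C13-only regions lay on promoters, and those that did are shown first because their promoter sequence can be given. In RefSeq promoters of GRCm38.p6 (mm10), a window from 250 bases before to 50 after the start was touched by a C13-only region at 36 genes, and the start itself lay inside one at 29 genes. The 6 sequences below come from genes picked for known roles in blood cells among the 10 such genes whose regions ranked highest in the C13 lists. The rest of the 10 were Olfr323, Capn3, Mst1r and Myo10, so the lineages of the genes shown do not describe the 10. Each is the 250 bases before the start, 5′ to 3′ on the gene's own strand, with matches to any of 20 searched motifs in capitals. They lie at chr9:123766961-123767210 on the plus strand (Ccr9), chr6:129408612-129408861 plus (Clec9a), chr8:94810203-94810452 plus (Ccl17), chr5:17835897-17836146 minus (Cd36), chr1:165788431-165788680 plus (Cd247) and chr19:41029025-41029274 plus (Dntt).
Ccr9: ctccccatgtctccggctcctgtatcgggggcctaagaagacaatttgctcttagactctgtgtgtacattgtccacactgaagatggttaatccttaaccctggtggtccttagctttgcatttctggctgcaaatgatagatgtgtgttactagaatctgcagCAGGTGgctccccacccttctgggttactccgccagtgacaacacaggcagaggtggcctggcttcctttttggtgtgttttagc
Clec9a: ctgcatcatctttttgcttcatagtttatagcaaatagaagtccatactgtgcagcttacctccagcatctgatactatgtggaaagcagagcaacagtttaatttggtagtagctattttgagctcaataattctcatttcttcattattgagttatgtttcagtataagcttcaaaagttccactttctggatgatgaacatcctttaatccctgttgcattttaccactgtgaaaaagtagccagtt
Ccl17: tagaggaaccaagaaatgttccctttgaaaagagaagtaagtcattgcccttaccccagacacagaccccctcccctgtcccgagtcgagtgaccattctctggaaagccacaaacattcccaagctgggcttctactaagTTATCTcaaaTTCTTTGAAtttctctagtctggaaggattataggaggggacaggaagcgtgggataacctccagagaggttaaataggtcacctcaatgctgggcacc
Cd36: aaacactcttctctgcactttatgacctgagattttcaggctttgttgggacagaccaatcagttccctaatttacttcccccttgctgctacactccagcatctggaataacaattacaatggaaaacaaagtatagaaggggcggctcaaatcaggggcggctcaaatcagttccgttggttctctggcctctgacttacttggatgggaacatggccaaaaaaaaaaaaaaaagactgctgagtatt
Cd247: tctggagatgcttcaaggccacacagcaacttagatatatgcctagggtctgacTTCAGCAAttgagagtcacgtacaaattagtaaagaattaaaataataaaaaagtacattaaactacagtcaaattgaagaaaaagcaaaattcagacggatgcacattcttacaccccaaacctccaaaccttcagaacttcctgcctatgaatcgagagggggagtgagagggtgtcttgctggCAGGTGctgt
Dntt: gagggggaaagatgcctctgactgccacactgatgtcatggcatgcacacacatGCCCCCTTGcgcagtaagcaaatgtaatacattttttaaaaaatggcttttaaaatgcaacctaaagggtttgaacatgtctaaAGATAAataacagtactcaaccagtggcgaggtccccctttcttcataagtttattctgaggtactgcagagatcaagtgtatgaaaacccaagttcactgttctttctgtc

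Ccr9 encodes a chemokine receptor that guides cells to thymus and gut and also marks plasmacytoid dendritic cells. Its C13-only region, chr9:123766679-123767642, had rank 40630 in C13 replicate 1 and 36900 in replicate 2, where rank 1 is the strongest of the 100000 peaks of a list. The nearest F-Seq peak of the other 6 libraries lay 1.38 to 1.81 kb away, so a peak nearby was listed in all of them but the start itself only in C13. The capitals in the Ccr9 sequence mark an E-box of the form CAGGTG.

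Clec9a encodes a receptor with which conventional dendritic cells sense dead cells. The region over its start, chr6:129408447-129409244, ranked 57800 and 49188 in the C13 libraries, and the nearest F-Seq peaks of the other libraries lay 0.398 to 0.67 kb from its edge. This start also lies in the annotated gene body of Clec12b, so the region cannot be given to 1 gene alone. None of the 20 motifs matched the Clec9a sequence shown.

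Ccl17, a chemokine made by dendritic cells, had its region at chr8:94809834-94810460, with ranks 56635 and 57259. The capitals mark a GATA match on the opposite strand and a STAT match next to it. Cd36, a scavenger receptor for lipids, had ranks 63879 and 61882 at chr5:17835528-17836273, and no motif matched in its window. Other starts of Cd36 exist in the annotation, and only the one shown lay in a C13-only region.

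Cd247 encodes the zeta chain of the T cell receptor complex, and Dntt the polymerase that adds bases at antigen receptor joints. The Cd247 region, chr1:165788453-165789023, ranked 64142 and 64579 in F-Seq, but neither C13 library had a HOMER peak there. Dntt, at chr19:41028867-41029818, ranked 78897 in C13 replicate 1 and 50746 in replicate 2, the widest gap between replicates of the 6. The capitals mark a CEBP and an E-box match at Cd247, and a CTCF and a GATA match at Dntt.

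The other 19 genes with their start in a C13-only region had lower ranks and were of many kinds. They included Vpreb3, a partner of the pre-B receptor, with ranks 79838 and 82192, and Fcmr, the receptor for IgM, with 80160 and 70647. Ifna4 and Ifna6, interferon alpha genes, had ranks of 72754 and 66162 and of 74104 and 72187. Interferon alpha genes are close copies of each other, so reads of these windows may have been placed on the wrong copy. Ctla4, an inhibitory receptor of T cells, ranked 91370 and 89978, close to the end of the lists. Starts outside these lineages were among the 29 as well, such as Olfr323, an olfactory receptor gene, with ranks 47485 and 46117, and Capn3, a muscle protease, with 64739 and 43960. Mst1r, a receptor kinase, and Myo10, a myosin, completed the genes with the highest-ranked starts. The remaining 14 were Mrvi1, H2bfm, Prkcz, Lbhd1, Cmbl, Lta, Gm3752, Fcrla, Plin1, Tpm3, Synpo2l, Rem1, B3galt5 and Aif1. Vpreb3, Fcmr, Ifna4, Ifna6 and Ctla4 were picked out after their values were seen, and the lineages of the 29 genes were not counted.

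The promoters under C13-only regions were poor in CpG. Their median ratio of observed to expected CpG was 0.213 over 36 genes, against 0.757 over the 10934 promoters under any region of both C13 libraries and 0.576 over all 17491 in the table. The ratio was under 0.6 at 31 of the 36, or 86.1%, against 28.6% under all C13 regions. Their median GC content was 50.5%, against 61%. The few promoters under regions of the other populations were poor in CpG too, with median ratios of 0.190 over 4 genes for C10-only, 0.323 over 13 for C2-only and 0.311 over 12 for C18-only regions, so a low ratio was not particular to C13. Because promoters of low CpG content hold other motifs than CpG islands, motif shares were also set beside the 3132 promoters of C13 regions with a ratio under 0.6.

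The 20 motifs were searched on both strands of the 300-base windows, and a match describes letters only. The PU.1 motif GAGGAAG was in 8 of 36 windows (22.2%, 95% Wilson interval 11.7 to 38.1), against 13.5% of windows under all C13 regions and 18.4% of those poor in CpG. ISRE, AAANNGAAA, was in 19.4%, against 8.04% and 13.3%. EBF, CCCNNGGGA, and STAT, TTCNNNGAA, were each in 6 windows or 16.7%, against 8.05% and 6.63% under all C13 regions and 7.38% and 8.68% among those poor in CpG. All 4 shares were higher than both comparison shares in this window. The PU.1 share was 5.88% in windows of 200 bases, and the STAT share 33.3% when only the 50000 strongest peaks of each list were used. The intervals, which for EBF run from 7.87 to 31.9, took in at least 1 of the comparison shares for each. The GATA motif, with the letters AGATAA, was in 13.9% against 6.16% and 10.9%. The E-boxes CAGCTG and CAGGTG were in 25% each, against 14.7% and 17.5% under all C13 regions and 19.6% and 20.8% among those poor in CpG. CEBP, TTGCNNAA, was in 8.33%, against 8.14% and 11.8%.

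The motifs ETS, CCGGAAG, RUNX, TGTGGTT, and AP-1, TGANTCA, matched none of the 36 windows, which leaves an upper Wilson limit of 9.64% for each. Under all C13 regions they were in 17.5%, 3.77% and 4.68%, and among windows poor in CpG in 8.40%, 6.55% and 8.08%. Only the ETS share over all C13 regions was above that limit. CTCF, CNAGNNGGC, was in 16.7% against 29.4% and 22.8%. Of the rest, MEIS (TGACAG) was in 13.9% against 16.7% and 21.6%, and EICE (GGAANNGAA) in 8.33% against 7.14% and 9.71%. KLF (CCACACCC), TCF/LEF (CTTTGAT) and OCT (ATGCAAAT) were in 1 window or 2.78% each, against 3.92%, 2.38% and 1.48% under all C13 regions and 5.11%, 3.19% and 1.85% among those poor in CpG. NFE2 (GCTGAGTCA) and NFKB (GGGANTTTC) were in 0, against 0.293% and 1.03% under all C13 regions. MEF2 (TAAAAATA) was in 2 windows, or 5.56% (interval 1.54 to 18.1), against 0.924% and 1.37%. It was the 1 motif of the 20 whose interval lay above both comparison shares. The 2 windows were those of Capn3, the muscle protease, and Synpo2l, and the intervals were not adjusted for the search of 20 motifs. The EICE and ISRE letters can overlap with each other and with PU.1, as NFE2 does with AP-1, so these shares are not independent.

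C13-only regions as a whole were narrow and weak. Their median width was 600 bases, with quartiles of 509 and 729, against 1127 for all C13 regions. Regions only in C10, C2 or C18 had medians of 629, 685 and 601.5 bases, so a low width was not particular to C13. In C13 replicate 1 their ranks ran from 16323 to 99970 with a median of 77651, and in replicate 2 from 15322 to 99999 with a median of 75640. All C13 regions had medians of 45277.5 and 45180.5. Only 440 C13-only regions, 7.61%, were among the 50000 strongest of replicate 1, and 567, or 9.80%, in replicate 2. At the weak end, 529 and 483 had ranks above 95000, where both lists are about to stop.

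The share of C13 regions that were C13-only rose with rank in both libraries. It was 0 of 9924 regions in the 10000 strongest of replicate 1, 1.21% between ranks 30001 and 40000, 6.54% between 50001 and 60000, and 22.4% beyond 90000. In replicate 2 the same bins held 0, 1.69%, 6.75% and 21.1%. A list that stops at a fixed number of peaks can leave out a weak peak that another list just holds, so absence from a list is not the absence of open chromatin. Ranks of C13-only regions in the replicates had a Spearman correlation of 0.68 over 5785 regions, against 0.951 over all C13 regions, which span a wider range of ranks. Regions share libraries, so no p-value is given.

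**Figure D1:**
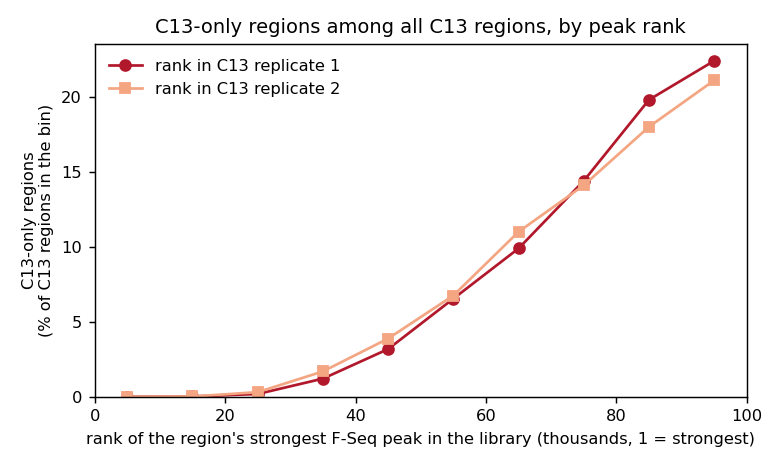
Share of C13-only regions among all regions of both C13 libraries (y axis, %) in bins of 10000 ranks of each C13 library (x axis, in units of 1000 ranks, 1 being the strongest peak). The share is 0 in the strongest bin of both libraries and reaches 22.4% in replicate 1 and 21.1% in replicate 2 in the weakest.

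HOMER, which lists peaks of 150 bases, found a peak in C13 at most of these regions, although the rule did not ask for one. A HOMER peak lay in 4952 C13-only regions in replicate 1 (85.6%) and in 4925 in replicate 2 (85.1%), in both for 4725 (81.7%) and in neither for 633 (10.9%). Over all C13 regions, 94.5% had HOMER peaks in both libraries. Regions only in C10, chosen by the same kind of rule, had them in both own libraries in 71.4% of 1160. The shares were 15.7% of 702 regions only in C2 and 7.91% of 2378 only in C18. The HOMER lists held 249132 and 252844 peaks in C13 but 72379 and 83548 in C18 and 171712 and 196264 in C2, so a C18 or C2 region had fewer peaks to meet, and how far this moved the shares was not tested.

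The HOMER clause of the rule weighed mainly through C10. Without it there were 9774 regions, and the 3989 that it removed had median ranks of 68752 and 68521, stronger than those kept. Of these, 3653 had a HOMER peak of C10 replicate 2 and 1081 of C10 replicate 1, against 79 and 237 for the C2 libraries and 1 and 3 for those of C18. In 2684 cases C10 replicate 2 was the only library that barred the region. Just outside the rule on the F-Seq side, 5867 regions were in both C13 lists and in a single other library, most often C10 replicate 2 with 2490 and C10 replicate 1 with 1128. The C18 libraries gave 433 and 456. The edge of the choice thus lay mostly against C10. C10 replicate 2 also had the longest HOMER list, with 260118 peaks. C10 replicate 1 had 235812, the C2 libraries 171712 and 196264 and the C18 libraries 72379 and 83548. How far list length moved the counts of barred regions was not tested.

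The other populations often had a peak in the neighbourhood, at about the spacing that C13 regions have from each other. Over all C13 regions, the next C13 region lay a median of 4.84 kb away. The median distance from a C13-only region to the nearest F-Seq peak was 4.13 and 3.81 kb in C10, 4.75 and 4.46 kb in C2 and 5.01 and 4.94 kb in C18, and 2.14 kb to the nearest of any. At 212 regions such a peak lay within 150 bases of the edge. For HOMER peaks this was so at 18 regions.

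The strongest C13-only region by mean rank was chr13:95905851-95906601, which ranked 16323 and 15322. It lay outside protein-coding genes, 13.6 kb from Iqgap2, a scaffold protein of the cytoskeleton, and had a HOMER peak in both C13 libraries. The nearest F-Seq peaks of C10 and C2 lay 5.04 to 5.47 kb away and those of C18 12.1 and 12.6 kb away. The next was chr9:36905204-36906348 inside Pknox2, a homeobox gene of the TALE class, with ranks 19368 and 23120. There the nearest C10 peaks were 1.47 and 1.55 kb off and those of C2 and C18 9.67 to 9.99 kb.

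The next strongest lay inside Vmp1, an autophagy gene, at chr11:86606395-86607248 with ranks 25739 and 19152, and inside Clcn6, a chloride and proton exchanger, at chr4:148030466-148031297 with 24686 and 20704. The rest of the 20 strongest lay in the gene bodies of Ppm1l, Rgs14, Hr, Palld, Gab1, Grm8, Pde2a, Sh3pxd2a, Tbc1d8, Phf2 and Sgip1, or had Pkdcc, Nfyc, 4930512M02Rik, Zeb2 or Cd93 as the nearest gene. Zeb2, a zinc finger repressor that acts in several blood lineages, was 35.6 kb from its region chr2:45152993-45153973, which ranked 32330 and 24830. Cd93, a receptor of early progenitors and endothelium, was 10.3 kb from chr2:148453877-148454692, which ranked 32669 and 27315. All 20 had HOMER peaks in both C13 libraries. For Grm8, a glutamate receptor gene, the nearest F-Seq peak of any other library was 15.7 kb away, the greatest such distance among the 20.

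C13-only regions lay away from gene starts. Within 1000 bases of the start of a protein-coding gene were 90 of the 5576 outside chromosome 18, which the promoter table leaves out, or 1.61% (95% Wilson interval 1.32 to 1.98). Over all C13 regions it was 13.3% of 85368. Regions only in C10 had 1.08%, those only in C18 1.26%, those in both C13 and C10 but not in C2 or C18 1.58%, and those only in C2 4.09% (interval 2.85 to 5.85). The low share was thus not particular to C13. These intervals cover counting error alone, and neighbouring regions are not independent.

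Of the C13-only regions, 50.1% lay in a protein-coding gene body, 13.3% outside but within 10 kb of one, and 36.6% farther away. All C13 regions had 58.7%, 12.6% and 28.7% in these classes. Regions only in C10 were placed much like those only in C13, with 51.4% in gene bodies and 36.6% far from genes. Regions only in C2 had 60.5% and 19.9%. Exons and introns were not told apart here.

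**Figure D2:**
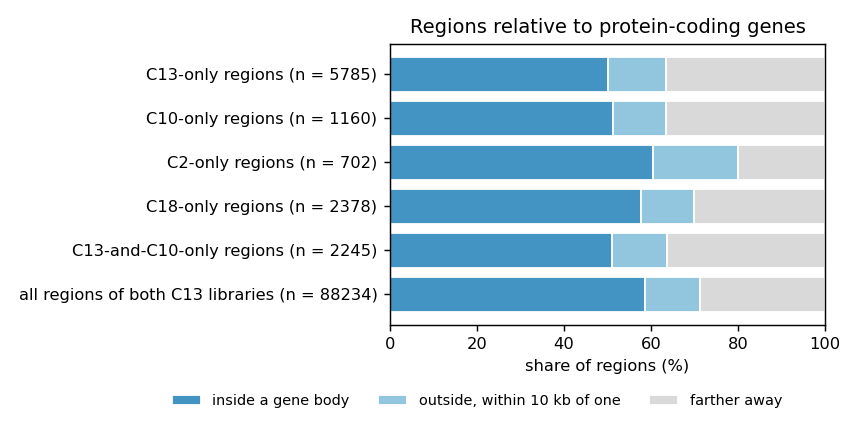
Share of regions (x axis, %) inside a protein-coding gene body, outside but within 10 kb of one, or farther away, for regions held by 1 population only, by C13 and C10 only, and by both C13 libraries. The grey part is 36.6% for C13-only regions, 36.6% for C10-only, 19.9% for C2-only and 28.7% for all C13 regions.

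Every autosome and the X chromosome held C13-only regions at a similar share of its C13 regions, from 5.50% of chromosome 11 to 7.35% of chromosome 13. They were spaced by a median of 71 kb to the next one, and 41.0% had another within 50 kb. A few stretches of 100 kb held many.

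The densest group lay at Dpp4, which encodes CD26, a cell-surface peptidase of lymphocytes that also trims chemokines. Between chr2:62394472 and chr2:62467695, 8 of 12 C13 regions were C13-only, and their mean ranks were 63327.4 in replicate 1 and 69903.8 in replicate 2. On the map of peaks at Dpp4, 6 of the 8 lay upstream of the 5′ end of the gene body, from 10.1 to 55.4 kb before it, and 2 lay inside it, between 12.02 and 17.84 kb after it. Peaks at the 5′ end and 29 and 48 kb upstream, which lie between C13-only regions, were listed in all 8 libraries, as were peaks near 20 kb inside the gene, beyond the last of them. The Dpp4 locus itself, the gene body with 10 kb to each side, takes in the 2 regions inside the gene body but not the 6 upstream. That locus did not have more covered bases in C13: 6.54 and 6.82 kb in C13, 8.16 and 7.99 in C10, 6.93 and 5.71 in C2 and 7.60 and 6.28 in C18, after scaling for total covered length. Covered bases of the whole dense stretch were not taken.

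**Figure D3:**
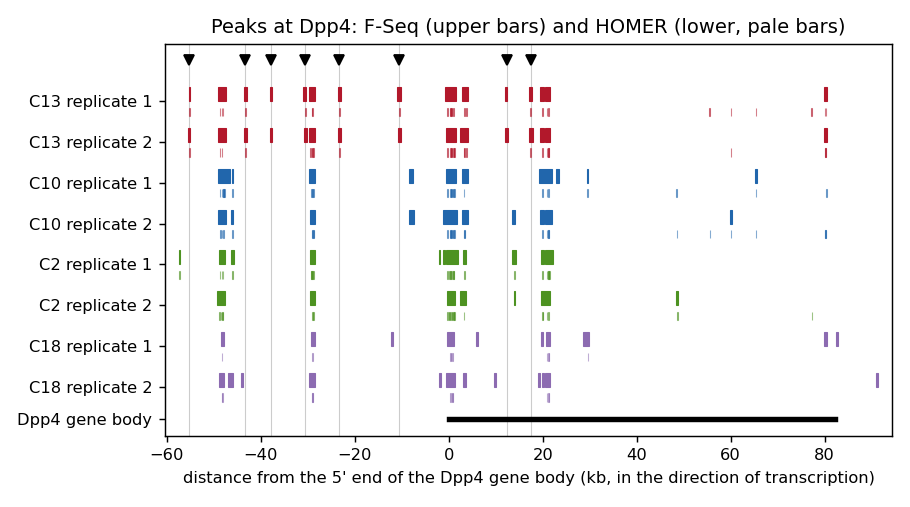
Peaks of each library around Dpp4 by distance from the 5′ end of the gene body (x axis, kb), F-Seq as upper and HOMER as lower, paler bars, with triangles and grey lines at the C13-only regions. The 8 triangles stand between 55.4 kb before and 17.8 kb after the 5′ end, and only the C13 rows have F-Seq peaks under them.

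The second group, between chr3:121335447 and chr3:121434477 at Alg14, of protein glycosylation, and Cnn3, a calponin, held 7 of 18 C13 regions. The third, between chr7:44207492 and chr7:44288614, held 6 of 9 at the Klk1b4, Klk1b5 and Klk1 genes of the kallikrein family. Klk1b genes are near copies of each other, so reads there may have been placed on the wrong copy and this group is uncertain.

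At the level of genes, 3328 of 21883 protein-coding loci, or 15.2%, held at least 1 C13-only region, 212 held at least 3 and 27 at least 5. Long genes lead any such count: the median gene length was 219.9 kb among loci with at least 3, against 17.2 kb over all. Nav2, a long gene of neuron navigation, held the most, 11 of its 75 C13 regions. Its covered bases, 73.2 and 72.0 kb in C13, were 53.4 to 65.0 kb in the other 6 libraries, below both C13 values. Ctnnd2, a delta-catenin gene, and Foxp1, a forkhead factor needed in early B cells, held 7 of 27 and 7 of 70. Immp2l, of a mitochondrial peptidase, held 6 of 30 and Hivep3, a zinc finger gene, 6 of 46. Ncald, Tmtc1, Sash1, Prkg1 and Fggy held 5 each.

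Ctnnd2 was covered by 23.7 and 22.1 kb of peaks in C13, 13.9 and 12.5 kb in C10, 7.90 and 7.10 kb in C2 and 6.96 and 7.48 kb in C18. C13 was highest, then C10, and the C2 and C18 values overlapped. Immp2l went otherwise, with 26.1 and 24.7 kb in C13 but 32.7 and 28.1 kb in C10. A gene can thus hold many C13-only regions and still have more covered bases in C10. These values contain the regions that the rule chose and carry no test.

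Pax5, the factor that commits cells to the B lineage, had the highest share of C13-only regions among loci with at least 8 C13 regions: 5 of 10. All 5 lay in its gene body on chromosome 4, at chr4:44567838-44568280, chr4:44612362-44612846, chr4:44624225-44625378, chr4:44633817-44634577 and chr4:44681801-44682368. The third of them was the strongest, with ranks 42082 and 34680, and the remaining 4 ranked between 61749 and 93144. Each had a HOMER peak in both C13 libraries. Their distances from the 5′ end of the gene ran from 28.3 to 142.4 kb.

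Peaks covered 9.0 and 10.5 kb of the Pax5 locus in C13, 4.1 and 4.0 kb in C10, 2.59 and 2.55 kb in C2, and 6.38 and 2.98 kb in C18. C13 was above every other library, and C18 replicate 1 stood apart from its replicate. HOMER gave 40 and 42 peaks in C13, 15 and 21 in C10, 7 and 10 in C2 and 2 in each C18 library, so with HOMER neither C18 library stood above C10. The F-Seq peaks of C18 replicate 1 at 89 to 119 kb in the map of Pax5 had no HOMER peak under them.

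**Figure D4:**
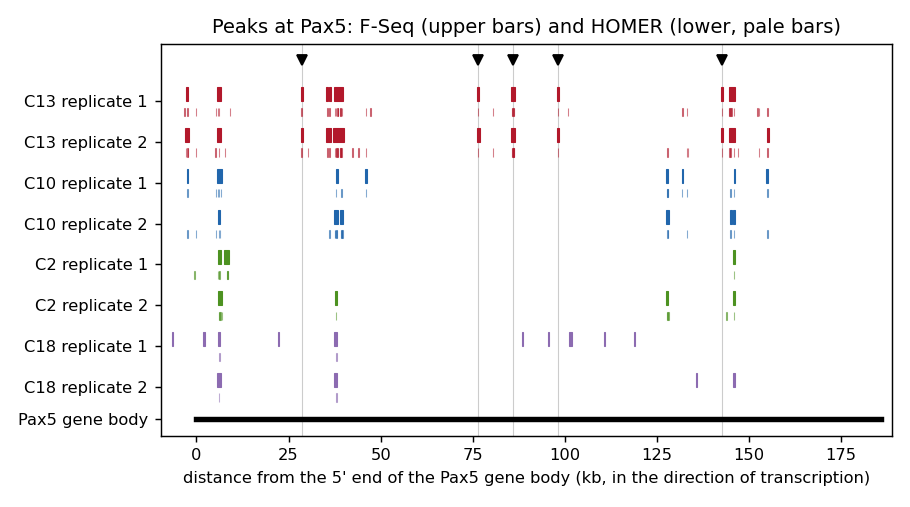
Peaks of each library at Pax5 by distance from the 5′ end of the gene body (x axis, kb), F-Seq as upper and HOMER as lower, paler bars, with triangles and grey lines at the 5 C13-only regions. The C13 libraries list 40 and 42 HOMER peaks and those of C18 2 each, and a peak near 38 kb is listed by F-Seq in 7 of the 8 libraries.

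Rtn1, a reticulon gene, followed with 4 of 10 regions and was covered by 8.37 and 7.70 kb in C13 against 2.03 to 3.10 kb in the other libraries. Hipk1, a nuclear kinase, held 5 of 13, but its covered bases were similar, 12.6 and 12.9 kb in C13 and 9.56 to 12.1 kb elsewhere. Clec9a, Dcaf7, Nostrin, Slc24a2 and Tmprss4 held 3 of 8 each, Adamtsl1 and Ildr1 4 of 11, and Dnajc15 and Ptpn5 4 of 12. Tmprss4, a membrane protease, was covered by 5.23 and 5.81 kb in C13 and at most 1.74 kb in any other library. Adamtsl1 had 6.12 and 5.87 kb in C13 and 9.10 to 14.1 kb in the others by F-Seq, the opposite order. Apart from the start, Clec9a had C13-only regions at chr6:129419404-129420177 and chr6:129421179-129421837, with ranks 64127 and 48868 and 51212 and 50270. Its covered bases did not separate C13 (7.27 and 7.55 kb) from C10 (7.16 and 7.44 kb), and were 5.19 and 6.41 kb in C2 and 4.81 and 6.54 kb in C18.

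For 16 lists of genes the C13-only share of the C13 regions at their loci was counted, beside 5.83% (3668 of 62911) over all protein-coding loci. The lists and the C13-only regions were chosen with results of these libraries known, so the counts are not independent evidence, and no test was made. The B lymphoid list had the highest share: 23 of 223 regions, or 10.3% (95% Wilson interval 6.97 to 15.0), at 8 of its 20 genes. They were Foxp1 with 7, Pax5 with 5, Bach2, a repressor of plasma cell fate, with 4, Ikzf3 (Aiolos) and Cd22, an inhibitory receptor of B cells, with 2 each, and Ebf1, an early B cell factor, Vpreb3 and Dntt with 1 each. Other genes of the list held none. By F-Seq, covered bases in C13 were above every other library at Pax5 but not at Foxp1, Bach2 or Ikzf3. Bach2 was covered by 45.6 and 45.8 kb in C13, less than in C10 (51.4 and 52.4 kb) and C2 (51.3 and 49.0 kb). Only C18, with 31.9 and 31.5 kb, was lower there. Foxp1 had 65.2 and 71.6 kb in C13 and 56.2 and 67.5 kb in C10. Ikzf3 had 3.58 and 5.45 kb in C13 and 4.02 and 5.94 kb in C2. These values contain the C13-only regions.

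The T and NK lymphoid list followed with 11 of 129, or 8.53% (interval 4.83 to 14.6), at 9 of 21 genes. Cd4, the coreceptor of helper T cells that some dendritic cells also carry, held 3 of its 7 C13 regions, at chr6:124873852-124875229, chr6:124882163-124882610 and chr6:124893674-124894544. Cd3e, Cd8a, Thy1, Il2rb, Tox, Tox2, Ets1 and Satb1 held 1 each. Peaks covered 7.25 and 6.90 kb of the Cd4 locus in C13 and 2.58 to 3.81 kb in the other 6 libraries. The Cd8a locus had 1.63 and 1.44 kb in C13, 0.505 kb in C18 replicate 1 and none in the other libraries.

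Among the dendritic genes, 9 of 131 regions were C13-only (6.87%), at 6 of 15 genes: Clec9a with 3, Irf4 with 2, and Tcf4, Siglech, Flt3 and Ly6d with 1 each. Irf4, an interferon regulatory factor of dendritic and B cells, was covered by 5.78 and 7.02 kb in C13 and 3.31 and 4.29 kb in C10. C2 had 1.52 and 2.88 kb and C18 1.84 and 2.94 kb there. Siglech, a lectin of plasmacytoid dendritic cells, had 6.38 and 7.10 kb in C13, 2.97 and 4.11 kb in C10, 2.73 and 2.56 kb in C2 and 0.752 and 0.837 kb in C18. At both loci C13 was above every other library by F-Seq but not by HOMER. HOMER covered 0.776 and 0.654 kb of Irf4 in C13 and 1.17 and 0.774 kb in C10. At Siglech it covered 0.726 and 0.677 kb in C13, 0.539 and 0.493 kb in C10, and 1.42 and 1.02 kb in C2, the highest. The order of the populations at these loci thus depended on the caller. Neither C13 library had a HOMER peak in the Siglech region chr7:55777431-55778665, which ranked 55133 and 50079.

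Lists of erythroid, granulocyte and monocyte, megakaryocyte, mast cell and stem cell genes had lower shares than all loci. They were 4% (4 of 100) for erythroid genes, 3.85% (3 of 78) for granulocyte and monocyte genes, 2.99% (2 of 67) for megakaryocyte genes, 3.39% (2 of 59) for mast cells, basophils and eosinophils and 3.47% (6 of 173) for stem and multipotent cells. Their intervals all took in 5.83%. Erythroid genes with such regions included Rhag, Ermap and Ank1, and the megakaryocyte ones were at Clec1b, whose region is the one over the Clec9a start, and Selp. Of the 3 granulocyte and monocyte ones, 2 were at Ltf, which encodes lactoferrin, and 1 at Csf1r, the receptor for macrophage growth factor. Both mast cell ones were at Mitf, a factor of mast cells and melanocytes.

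Transcription factors of blood cells had 39 of 613 (6.36%), among them those at Foxp1, Pax5, Bach2 and Ikzf3, which the B lymphoid list also holds. The share was 4.70% (7 of 149) for cytokine receptors and 4.05% (3 of 74) for housekeeping genes. The histone deacetylase list had 7 of 103 (6.80%), including 4 at Hdac9 and 2 at Hdac4. Lists for cells that the sort should not hold gave 6 of 78 (7.69%) for stroma and endothelium, 4 of 47 (8.51%) for non-haematopoietic genes and 1 of 60 (1.67%) for macrophages. The stroma and endothelium ones were at Cdh5, the cadherin of vascular endothelium, with 3 of 12, Kitl with 2 of 5, and Sox17 with 1 of 5. Cdh5 was covered by 9.50 and 9.92 kb in C13, 5.99 and 5.56 kb in C10, 3.39 and 4.19 kb in C2 and 2.66 and 3.72 kb in C18 by F-Seq. HOMER did not put C13 above C10 there, with 1.22 and 1.46 kb in C13 and 1.23 and 1.71 kb in C10. A share above that of all loci was thus not limited to lymphoid genes. Whether cells of other types in the sort contributed to any of these regions was not tested.

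**Figure D5:**
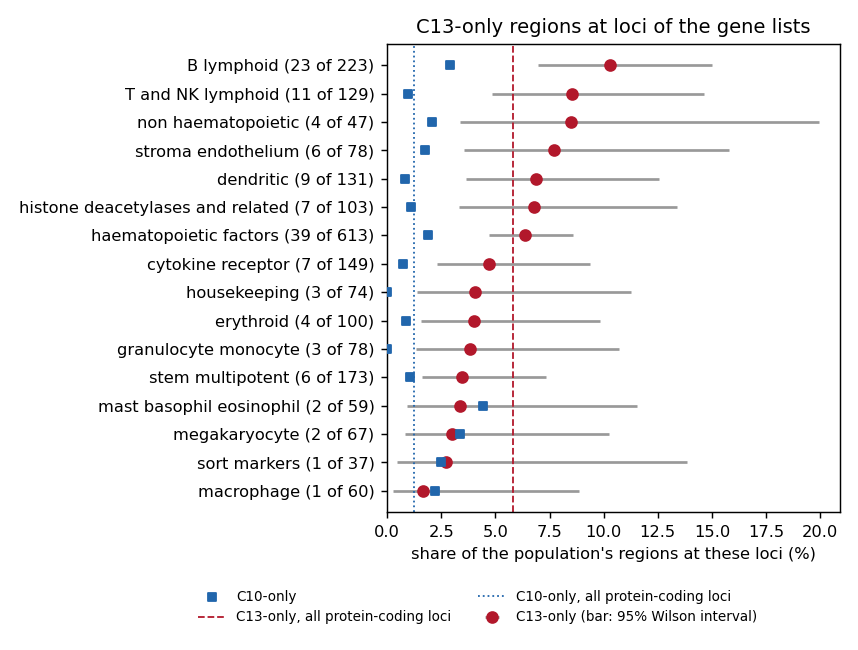
Share of C13 regions at the loci of each gene list that were C13-only (x axis, %, circles with 95% Wilson intervals and counts in the labels), and the same share for C10-only among C10 regions (squares). Broken lines give both shares over all protein-coding loci, 5.83% for C13-only and 1.26% for C10-only; the B lymphoid interval of 6.97 to 15.0 lies above the first.

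Regions only in C10 were also more frequent at the B lymphoid loci, with 5 of 172 (2.91%) beside 1.26% over all loci, so the excess there was not shown to differ between C13 and C10. Regions only in C2 made up 1 of 148 (0.676%) at the B lymphoid loci and 2 of 86 (2.33%) at the T and NK lymphoid loci, beside 1.11% over all loci. Regions only in C18 made up 2 of 91 (2.20%) and 0 of 64, beside 4.09%, and those only in C10 1 of 102 (0.980%) at the T and NK loci. The T and NK lymphoid share was thus above that of all loci for C2-only regions too, from 2 regions, and no difference between populations was tested. Since weak regions were more often C13-only, the shares were also taken over C13 regions with a mean rank above 50000, an alternative chosen after seeing the data. Over all loci the share was 12.3%. Above it were B lymphoid (19.2%), dendritic (17.0%), T and NK lymphoid (15.9%) and non-haematopoietic loci (16%). So were cytokine receptor (14.9%), histone deacetylase (14.3%), transcription factor (13.4%) and stroma and endothelium loci (13.2%). Below it were granulocyte and monocyte (10.3%), housekeeping (8%), sorting marker (7.69%) and erythroid loci (7.55%). Stem and multipotent (7.06%), megakaryocyte (6.06%), mast cell, basophil and eosinophil (6.06%) and macrophage loci (3.03%) were below it too. The cytokine receptor share thus changed side, as it was 4.70% beside 5.83% without the limit on rank. The B lymphoid and the T and NK lymphoid shares were above that of all C13 regions in 15 of 15 settings of the rule and the locus, running from 4.55 to 16.1% and from 6.98 to 15.4%. The erythroid, the megakaryocyte and the mast cell shares were so in 0 of 15. The non-haematopoietic share was above in 14, that of stroma and endothelium in 12 and the dendritic share in 9. The comparison here was with all C13 regions, 6.56% in the main setting, in place of all protein-coding loci. The 15 settings include the main one and reuse the same libraries, so they are not independent of each other.

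The genes of the sorting markers held 1 C13-only region among 37 C13 regions, or 2.70% (interval 0.479 to 13.8), which takes in the 5.83% of all loci. Kit, Cd34, Itga2b (CD41), Cd9, Cd48 and Fcgr3 held none, and Fcgr2b (CD32) held 1, at chr1:170981140-170981559 with ranks 82097 and 95942. The Itga2b locus was covered by 2.83 and 2.71 kb in C13, 3.02 and 2.83 kb in C10, 5.55 and 3.50 kb in C2 and 4.22 and 5.25 kb in C18. The Cd9 locus had 8.92 and 8.26 kb in C13 and 8.34 to 11.2 kb in the others. C13, sorted as CD41- and CD9-, was below every other library at Itga2b by F-Seq, by little against C10, and overlapped with C2 at Cd9. By HOMER, Itga2b had 0.665 and 1.06 kb in C13 and 1.02 and 1.09 kb in C10, so the libraries overlapped there.

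The loci that hosted C13-only regions were also compared between the other populations. The rule asked each of these to have no peak in the regions, so the host loci were not chosen independently of their lists. The counts and p-values below thus describe these loci and are not independent evidence about them. Leaving out the bases of C13-only regions changed no value of C10, C2 or C18, which had no peaks there. Each of 18419 loci was taken without the bases of its C13-only regions, and the log2 of scaled covered bases plus 200 was fitted with limma over all 8 libraries. Of 211 tested loci with at least 3 C13-only regions, 58 (27.5%) had more covered bases in C10 than in C18 at a Benjamini-Hochberg adjusted p under 0.05, and 9 (4.27%) had fewer. Over all loci 7.94% had more and 14.2% fewer. The median log2 difference of C10 against C18 was 0.25 at these loci and -0.15 over all. These p-values reflect variation between libraries only, possibly technical, as separate animals are not documented.

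C18 had the narrowest peaks, with medians of 491 and 618 bases against 691 to 800 in the others, and the fewest covered megabases, 62.5 and 78.9 against 88.8 to 100.7. The scaling for covered length moved the median of all loci from 0.27 to -0.15, and without it 113 host loci were higher and 0 lower, against 18.9% and 2.71% of all loci. Calls also rested on having both C10 libraries: with 1 of them left out, few or no host loci were called higher. The host median stayed at 0.27 without C10 replicate 1 and at 0.23 without C10 replicate 2. Gene length moved with the result. Among loci under 100 kb, 6.21% with no C13-only region, 8.47% with 1 or 2 and 23.3% with 3 or more were higher in C10, and among longer loci 15.2%, 18% and 28.6%. Depth is unknown for these lists, and its part in the result was not tested.

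The host loci with the smallest p that were higher in C10 were Dse, Rasgrf1, Sntb1 and Bach2. Dse, an enzyme of dermatan sulphate synthesis, was covered by 11.9 and 11.1 kb in C10 and 4.47 and 4.67 kb in C18, a log2 difference of 1.29 (SE 0.12, limma adjusted p 0.00598). Rasgrf1, an exchange factor of Ras, had 15.2 and 14.8 kb in C10 and 4.40 and 4.11 kb in C18, a difference of 1.77 (SE 0.18, adjusted p 0.00598). C13 had 18.9 and 17.5 kb there, above C10. Bach2 had 51.4 and 52.4 kb in C10 against 31.9 and 31.5 kb in C18 (log2 0.71, limma adjusted p 0.00863). Each C13 library had 43.3 kb there, between C10 and C18, and the C2 libraries had 51.3 and 49.0 kb. Sntb1, a syntrophin, differed by 0.98 (adjusted p 0.00694).

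Tex14, Ssbp3, Tut7 and Lipc were lower in C10. Tex14, of germ cell bridges, had 10.99 and 12.5 kb in C10 and 21.7 and 19.2 kb in C18, a log2 difference of -0.79 (limma adjusted p 0.0114), with 12 and 13.6 kb in C13. The other 3 differed by -0.70, -0.75 and -0.73. In all 4 the C13 values were below both C18 values.

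Between C2 and the mean of C10 and C18, limma called 0 of 18419 loci, and so 0 of the 211 host loci. At an unadjusted p under 0.05, 14 host loci were higher in C2 (6.64%, against 10.3% of all loci) and 27 lower (12.8%, against 6.29%). The median log2 difference was -0.07 beside 0.06 over all loci. The difference of C13 from the mean of the other populations, given as a description only, had a median of 0.18 at the host loci and -0.11 over all, again with the C13-only bases left out.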

How the data were processed

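The data are peak lists of 8 ATAC-seq libraries, 2 for each of 4 populations named by the sample titles. Bowtie 1.0.0, HOMER 1.0 and mm10 are named in the submitters' processing notes, and for F-Seq a version was not given in the sources used here. Peaks were called by the authors in each library separately. The deposited F-Seq lists give peak height as a signal estimated from read density and hold 100000 peaks each, in falling order of signal. The deposited HOMER lists hold 150-base peaks with unlabelled score columns. Ranks within a list follow the signal, and the score was not used. Lists hold no read counts, so depth is unknown.

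The C13-only regions and the gene lists were chosen with earlier results of these data known. A locus was a RefSeq protein-coding gene body (GRCm38.p6) with 10 kb to each side, so neighbouring genes can share regions. C13 and C10 lists covered more bases than those of C18, so covered bases were scaled to the mean total, with factors from 0.885 to 1.43. Loci were tested with limma 3.58.1 (R 4.3.3), eBayes with trend, 4 group means, Benjamini-Hochberg adjustment at 0.05 and a pseudocount of 200 bases, which understates changes of loci with few covered bases, for loci covered in at least 2 libraries. The fit and the region rule were tested on simulated data. Without a genome sequence, motifs were searched in promoter windows in place of region centres. Exons were not used here.

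Named were the 12 loci with most C13-only regions, the 12 with the highest share (at least 8 C13 regions and 3 C13-only), the genes at the 20 strongest regions, up to 4 genes of each list, the sorting markers, the 4 called host loci of smallest p in each direction, genes at the 3 densest groups, and the 10 highest-ranked starts. Vpreb3, Fcmr, Ifna4, Ifna6, Ctla4 and the genes of a list beyond 4 were chosen after their values were seen. Some genes that this rule names are not reported here. Alternatives were the HOMER clause, the strongest 50000 peaks, merging, overlap, distance to starts, scaling, pseudocount, filter, locus, host threshold, replicate block and each library left out.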

Additional observations from a re-analysis of the deposited data

How the results depend on the processing

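The number of C13-only regions was 9774 without the HOMER clause and 803 among the 50000 strongest peaks of each list, and 6025 to 10105 with 1 library left out, highest without C10 replicate 2. The share at gene starts was 2.46% with the 50000 strongest peaks, 0.753% within 250 bases, 9.47% within 5000 bases and 4.25% within 1000 bases of either end of a gene body, an alternative chosen after seeing the data, and 1.58 to 1.74% with 1 library left out. The PU.1 share was 5.88% in windows of 200 bases, and the STAT share 33.3% with the 50000 strongest peaks. Windows on the region centres were not run. Host loci higher in C10 than in C18 numbered 113 without scaling, 34 without a filter on low values, 89 with HOMER lists, 398 among loci with at least 1 C13-only region and 7 with at least 5, and lower ones 0, 5, 24, 357 and 0 in that order, and 4 in gene bodies alone. The share of host loci higher was 53.6% against 18.9% of all loci without scaling, 16.0% against 4.42% without the filter, 42.2% against 17.5% with HOMER lists, and 12.1% with at least 1 region and 25.9% with at least 5, both against 7.94%. The share lower was 0 against 2.71%, 2.36% against 7.96%, 11.4% against 30.6%, 10.8% against 14.2% in the first 4 of these settings, and 1.90% against 7.65% in gene bodies alone. With 1 library left out there were 0 to 75 higher and 0 to 14 lower. In C2 against C10 and C18, 1 host locus (0.472%) was higher without the filter, where 0.763% of all loci were called in either direction. With 1 library left out, a few host loci were called in some fits, again without the share over all loci beside them. The causes were not tested.

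Replicate numbers showed little pairing in covered bases: correlations of same-numbered deviations ran from -0.013 to 0.119 over the pairs of populations. Whether same-numbered libraries shared mice or a preparation cannot be told from these values or the labels. With the replicate block, 61 host loci were higher and 8 lower in C10, and 0 were called for C2. The share over all loci was not set beside these counts, so they are not read as an excess at host loci. The calls of Dse, Rasgrf1 and Sntb1 held in 14 of 15 alternatives, those of Bach2, Tex14, Ssbp3 and Lipc in 12 and that of Tut7 in 11, and no direction reversed. Adjusted p ranged from 0.00191 to 0.0717 for Dse, 0.00298 to 0.0717 for Rasgrf1 and Sntb1, 0.00424 to 0.0798 for Bach2, 0.00111 to 0.159 for Tex14, 0.00996 to 0.432 for Ssbp3, 0.00188 to 0.399 for Tut7 and 0.00502 to 0.393 for Lipc. Unknown depth and lists of fixed length limit what absence from a list shows.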
